A study of Homo sapiens with 4 samples.

Results

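The 2 macroH2A histone genes and 6 genes that regulate splicing of macroH2A1 were followed in MDA-MB-468 cells, a human line from breast cancer. The genes were MACROH2A1 (older symbol H2AFY), MACROH2A2 (H2AFY2), QKI, DDX5, DDX17, RBFOX2, MBNL1 and MBNL2. They were chosen by name, with earlier results of these data known. They are the gene of the histone form labelled as knocked out, its paralogue and known regulators of the alternative exon of MACROH2A1. All 20 probes annotated to them alone were taken from an array of 47230 probes. The groups were 2 samples of wild type cells and 2 labelled mH2A1.2 knockout, each hybridised to 1 Illumina bead array, with all 4 arrays on 1 chip. No treatment or time is named for either group. The labels do not say how mH2A1.2 was depleted, whether the knockout cells are 1 clone, or whether the replicates are separate cultures. The p-values below therefore cover just the spread among these 4 samples, and that spread may be technical.

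MacroH2A proteins are variants of histone H2A that carry a large macrodomain behind the histone fold and are common in transcriptionally silent chromatin. MACROH2A1 pre-mRNA is spliced with 1 of a pair of mutually exclusive exons, which gives macroH2A1.1, whose macrodomain binds ADP-ribose, or macroH2A1.2 (mH2A1.2), whose macrodomain does not. QKI, MBNL1, RBFOX2 and the helicases DDX5 and DDX17 are known to influence which exon is used, and in many cancers the balance lies towards macroH2A1.2.

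A probe's signal is its mean bead brightness on the array's linear scale. Its detection p is the chance that negative control beads on the same array are as bright, and a probe is called detected on an array where this p was under 0.05. After background correction and quantile normalization, values were taken to log2, and differences are knockout minus wild type on that scale. An offset of 16 added before log2 shrinks the differences of dim probes. Between 18753 and 19817 probes were detected on an array. MDA-MB-468 markers were present, with EPCAM at 9.21 and 9.29 (log2) for wild type and 9.44 and 9.22 for knockout, and 5 of 7 measured epithelial and basal markers were detected in each group. CDH1 and KRT5 were not. No endothelial marker of 4 was detected, and 2 of 6 fibroblast markers and 3 of 5 leukocyte markers were detected in each group. Summed normalized signals were 373 and 413 for wild type and 473 and 715 for knockout over the leukocyte list, and 412 and 376 against 460 and 524 over the fibroblast list. The epithelial and basal list summed to 2818 and 3317 against 5826 and 6418. Of its 5 genes with a kept probe 4 lay higher and 1 lower, with KRT19 at 8.86 and 9.82 against 11.43 and 11.7. CD14 (leukocyte, 3 genes higher and 0 lower) read 6.63 and 6.64 against 7.45 and 8.36. PDGFRB (fibroblast, 2 higher and 1 lower) read 6.55 and 6.07 against 7.1 and 7.68. Among hormone receptor and HER2 markers, low or absent in this line, ERBB2 read 8.45 and 8.83 against 8.94 and 9.11. PGR was not detected, and ESR1 only in knockout. The part of these shifts in the results below was not tested. Marker detection used the brightest probe of each gene and the replaced detection p-values of the processing account. On that basis PTPRC, CD3E, COL3A1, DCN and LUM were not detected on any array. By the deposited detection p, 3 DCN probes were kept. In bulk samples, fewer cells with a transcript and less of it per cell cannot be told apart.

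Of the 20 probes, 12 were detected on all 4 arrays and 3 on none. The 15 probes detected on at least 2 arrays entered the fit, and they cover all 8 genes. At an adjusted p under 0.05 in limma's moderated test, with Benjamini-Hochberg adjustment over 19752 kept probes, 0 of the 15 were called, against 0% of all kept probes, and the smallest adjusted p on the array was 0.127. At an unadjusted p under 0.05, 3 of the 15 were called (20%), against 17.3% of all kept probes. All 3 read MACROH2A1, 1 of them higher and 2 lower in knockout, against 8.23% of all kept probes higher and 9.06% lower at that p, and 0 of the 12 kept probes of the other genes reached that p. The wild type and knockout values did not overlap for 8 of the 15 probes (53.3%), against 49.9% of all kept probes, so the counts over the whole group of genes lay near the background. The median difference was -0.03 for the 15 probes and -0.01 for all kept probes. With 1 array left out, a group holds 1 array and the fit takes its spread from the other group alone. For those fits only differences are given in these Results. Their p-values and counts appear just in the last section, on the processing, and no conclusion is drawn from them.

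**Figure D1:**
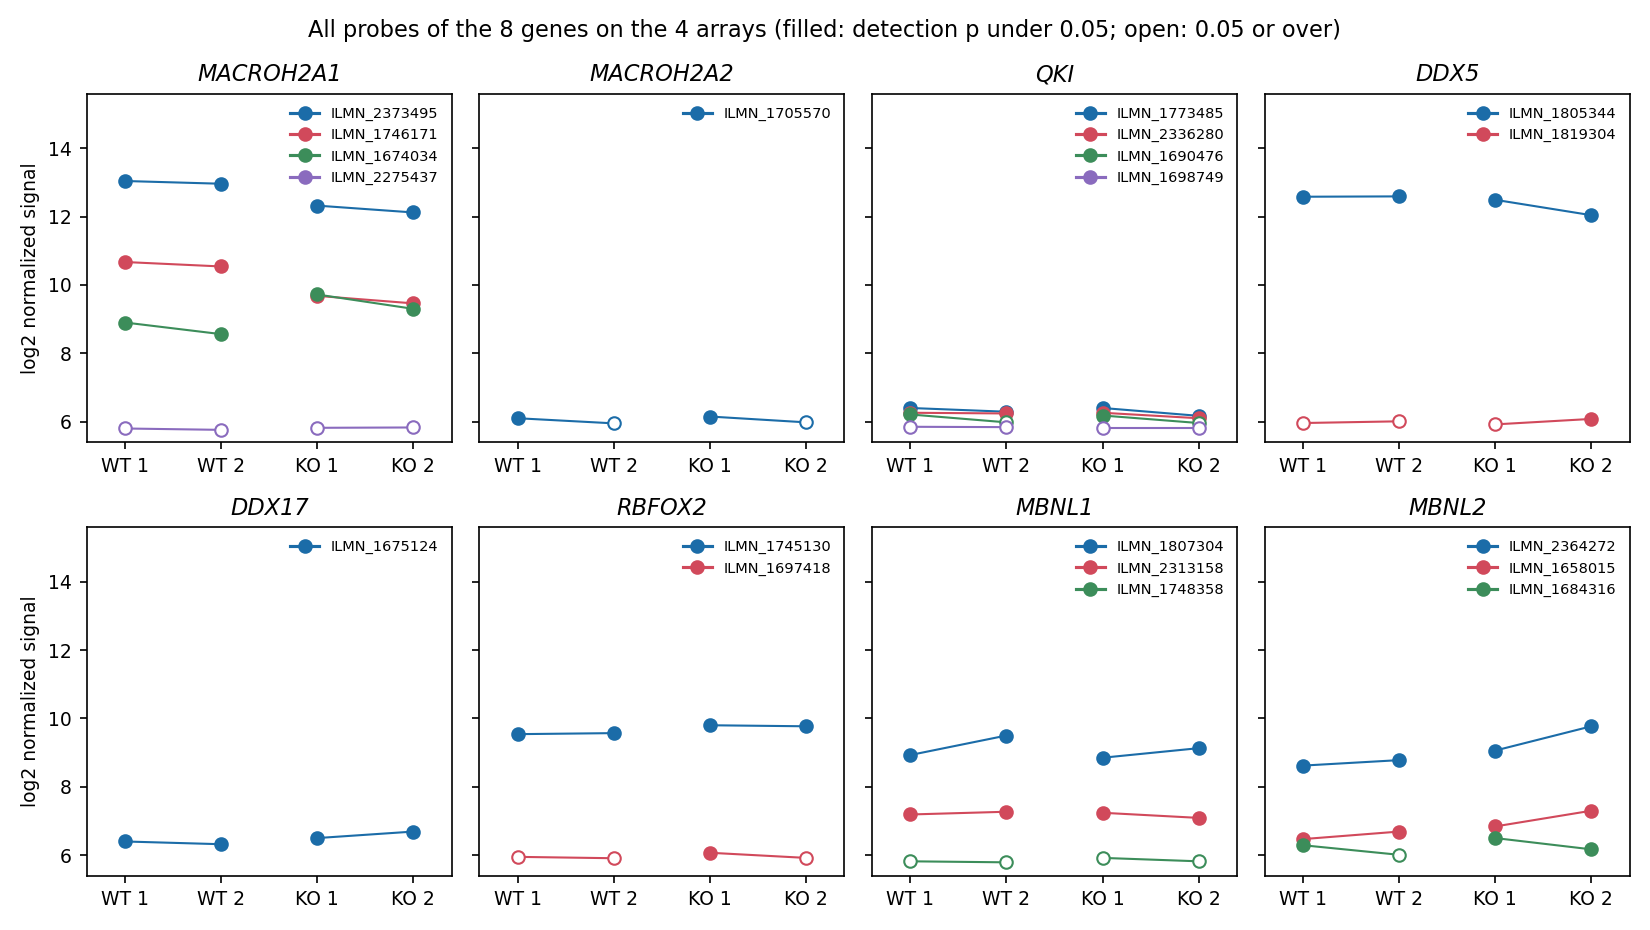
Normalized log2 signal of every probe of the 8 genes on the 4 arrays (WT, wild type; KO, mH2A1.2 knockout; replicates 1 and 2), 1 panel a gene and 1 colour a probe, with a line joining the replicates of a group; filled points had a detection p under 0.05 and open points did not. In MACROH2A1, 2 probes lie lower in knockout, 1 lies higher and the undetected probe stays near 5.8.

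MACROH2A1 is the gene that encodes mH2A1.2. Its probes did not move as 1. In knockout, 2 detected probes lay lower, by 1.72-fold and 2.05-fold, and the third lay 1.72-fold higher, each at an unadjusted p under 0.05 and none at an adjusted p under 0.05. Without the second wild type array the log2 difference of the higher probe fell from 0.78 to 0.61. Neither the array annotation nor the files used here say which splice form each probe reads or whether it lies in the depleted stretch, so no probe here is a check of the knockout label.

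The brightest probe, ILMN_2373495 (transcript record NM_004893), had signals of 8855.5 and 8430.6 for wild type and 5419.7 and 4118.9 for knockout, with a detection p of 0 on each array. Its log2 values were 13.04 and 12.96 for wild type and 12.32 and 12.12 for knockout. Both knockout arrays lay below both wild type arrays, and each group's own gap was under 0.20. The difference was -0.78 ± 0.12 (SE, n = 2 arrays a group), with an unadjusted p of 0.00315 and a limma adjusted p of 0.139. Leaving out 1 array in turn gave differences from -0.88 to -0.68.

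Probe ILMN_1746171 (record NM_138609) had signals of 1802.3 and 1730.9 for wild type and 952.9 and 772.6 for knockout. On the log2 scale it read 10.67 and 10.54 for wild type and 9.68 and 9.46 for knockout. The groups were again apart, with the knockout arrays lower. The difference was -1.03 ± 0.13 (SE, n = 2 arrays a group), with an unadjusted p of 0.00142 and a limma adjusted p of 0.129. Across the fits without 1 array the difference ran from -1.14 to -0.93.

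Probe ILMN_1674034 is annotated to that same record, NM_138609, and ran the other way. Its signals were 618.7 and 536.3 for wild type and 978.7 and 710.0 for knockout, and its log2 values 8.90 and 8.56 for wild type and 9.72 and 9.30 for knockout. Both knockout arrays lay above both wild type arrays. The gaps within the groups, 0.34 and 0.41, were wider than for the other 2 probes. The difference was 0.78 ± 0.21 (SE, n = 2 arrays a group), with an unadjusted p of 0.0211 and a limma adjusted p of 0.214. With 1 array left out the difference ran from 0.58 to 1.0, and without the second wild type array it was 0.61. The remaining probe, ILMN_2275437 (NM_004893), had signals from 117.1 to 125.2 and detection p from 0.757 to 0.969, so it was not above background on any array.

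On uncorrected signals, ratios between probes of the gene within an array remove any factor that scales a whole array. On the normalized values given first, which carry an offset and quantile normalization, this need not hold exactly. The log2 ratio of ILMN_1674034 to ILMN_1746171 was -1.77 and -1.98 for wild type and 0.04 and -0.16 for knockout. The ratio of ILMN_1674034 to ILMN_2373495 was -4.14 and -4.40 for wild type and -2.60 and -2.82 for knockout. Both ratios stood higher on each knockout array than on either wild type array, by means of 1.82 and 1.56, while the arrays of a group differed by less than 0.30. The ratio of the 2 probes that lay lower, ILMN_1746171 to ILMN_2373495, was -2.37 and -2.42 for wild type and -2.64 and -2.66 for knockout, a mean change of -0.26. The exact permutation test, two-sided, gave p = 0.33 for each of the 3 ratios, which is the smallest p that 2 arrays against 2 allow. On uncorrected signals the 3 changes were 1.57, 1.40 and -0.17.

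Whether the probes of a gene change unequally was tested with limma's diffSplice over the 2900 genes with at least 2 kept probes. For MACROH2A1 limma's diffSplice gave an adjusted p of 0.0997, which does not pass 0.05, from an unadjusted p of 0.000137. In order of p it was number 4, and 4 genes shared that adjusted p, the smallest of all. The test called 0% of genes at an adjusted p under 0.05 and 6.31% at an unadjusted p under 0.05. The gap between the highest and lowest probe difference was 1.82 for MACROH2A1, number 6 in width of the 2900, against a median of 0.18 and a 95th percentile of 0.82. Detected probes on opposite sides, each at an unadjusted p under 0.05, were found in 8 genes (0.276%), MACROH2A1 among them. Probes of both signs, at any p, were found in 26.3% of genes. The adjusted p was 0.00955 when no detection filter was set. That fit also takes in ILMN_2275437, which was not above background, and the other probes that the filter removes. In it 70 genes had an adjusted p under 0.05.

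**Figure D2:**
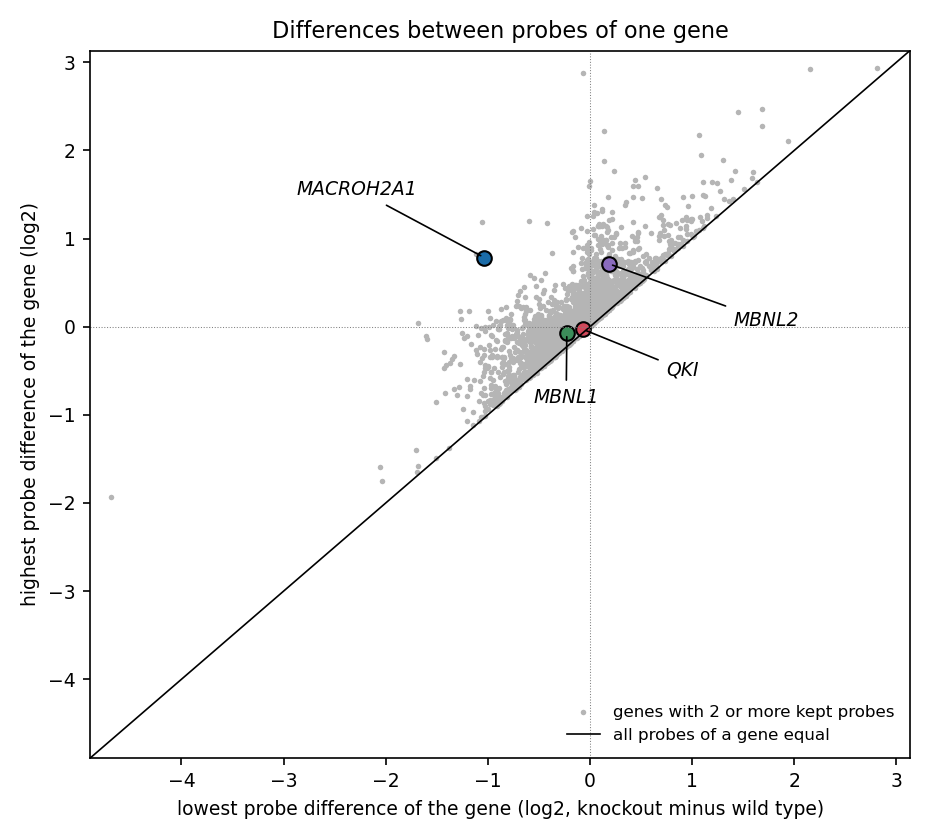
Lowest (x axis) against highest (y axis) knockout minus wild type difference (log2) among the kept probes of each of the 2900 genes with at least 2, 1 point a gene, with the 4 genes described here that have several kept probes marked. MACROH2A1, at -1.03 and 0.78, lies far from the diagonal, on which the probes of a gene would be equal, and QKI, MBNL1 and MBNL2 lie closer to it.

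MACROH2A2 encodes the other macroH2A protein, macroH2A2. Its only probe, ILMN_1705570, was near background, with signals of 158.0 and 142.8 for wild type and 167.3 and 142.8 for knockout. It was detected on 1 array of each group, at a detection p of 0.013 in wild type and 0.0039 in knockout. The groups overlapped. The difference was 0.04 ± 0.13 (SE, n = 2 arrays a group; 95% interval -0.31 to 0.39) with a limma adjusted p of 0.921, and its sign changed in the authors' deposited log2 values (-0.13). A change in this gene was not detectable at this signal.

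**Figure D3:**
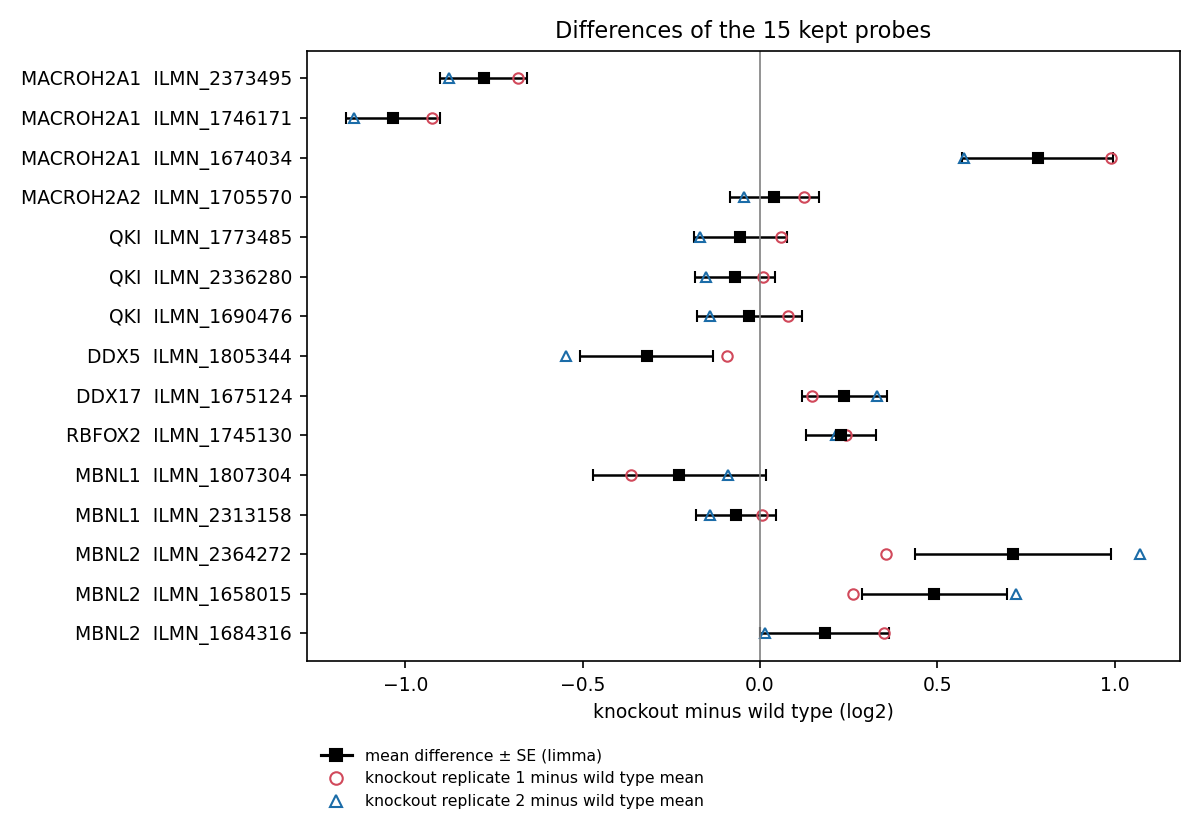
Knockout minus wild type difference (log2, x axis) of the 15 kept probes of the 8 genes, as the mean with its moderated standard error (squares and bars), with each knockout array's difference from the wild type mean as a circle (replicate 1) or triangle (replicate 2). The knockout arrays of the brightest MBNL2 probe stand far apart, at 0.36 and 1.07, and those of RBFOX2 close together.

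QKI, an RNA-binding protein of the STAR family that favours the macroH2A1.1 exon, was dim. Its probe ILMN_1773485 had log2 values of 6.40 and 6.29 for wild type and 6.40 and 6.17 for knockout, and it was detected on all 4 arrays. ILMN_2336280 read 6.26 and 6.24 for wild type and 6.26 and 6.10 for knockout. The groups overlapped in both, and in the third kept probe, ILMN_1690476, which was detected on 1 array of each group. Differences of the 3 probes were -0.05 ± 0.13, -0.07 ± 0.11 and -0.03 ± 0.15 (SE, n = 2 arrays a group), and their 95% intervals together run from -0.44 to 0.38. QKI signals lay near background, where the offset shrinks differences, so these intervals do not bound a change in the transcript. The sign of each turned without the second knockout array, to 0.06, 0.01 and 0.08. ILMN_1698749 was not above background on any array, with detection p from 0.671 to 0.857.

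DDX5 (p68) and DDX17 (p72) are closely related DEAD-box RNA helicases that act in splicing and transcription. DDX5 was bright: ILMN_1805344 read 12.58 and 12.59 for wild type and 12.49 and 12.04 for knockout. The second knockout array lay 0.55 below the wild type mean and the first 0.09 below it, so most of the difference of -0.32 ± 0.19 (SE, n = 2 arrays a group; limma adjusted p 0.477) came from 1 array. Without the first knockout array the difference was -0.55, and without the second it was -0.09. Under median scaling it was -0.12. The other DDX5 probe, ILMN_1819304, is annotated to an expressed sequence tag and was detected on the second knockout array alone. DDX17 was read by 1 dim probe, ILMN_1675124, at 6.40 and 6.32 for wild type and 6.50 and 6.69 for knockout. Both knockout arrays lay higher, by 0.24 ± 0.12 (SE, n = 2 arrays a group; limma adjusted p 0.413). The difference was 0.43 when the detection p-values that do not follow their signal were replaced, as in the processing account, 0.40 under median scaling, and 0.14 without the second knockout array.

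RBFOX2, which binds GCAUG motifs beside alternative exons, was read by ILMN_1745130 at 9.54 and 9.57 for wild type and 9.80 and 9.77 for knockout. The arrays of each group lay within 0.03 of each other and the groups were apart. The difference of 0.23 ± 0.10 (SE, n = 2 arrays a group) had an unadjusted p of 0.0801 and a limma adjusted p of 0.345, and it kept its sign when any 1 array was left out. Scaling the arrays to equal medians raised it to 0.42. A second probe, ILMN_1697418, was detected on the first knockout array alone.

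MBNL1 and MBNL2 are muscleblind-like splicing regulators, known for their sequestration by repeat RNA in myotonic dystrophy. MBNL1 probe ILMN_1807304 read 8.93 and 9.50 for wild type and 8.85 and 9.13 for knockout, and ILMN_2313158 read 7.19 and 7.27 for wild type and 7.24 and 7.09 for knockout. The groups overlapped in both probes. In the first the wild type arrays stood 0.57 apart, more than the difference of -0.23 ± 0.24 (SE, n = 2 arrays a group), which turned to 0.06 without the second wild type array. The second probe differed by -0.07 ± 0.11, which turned to 0.22 under median scaling. ILMN_1748358 was not above background on any array.

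MBNL2 lay higher in knockout in each of its 3 probes, none past the adjusted threshold or an unadjusted p of 0.05. ILMN_2364272 read 8.62 and 8.78 for wild type and 9.06 and 9.77 for knockout, which differ by 0.71 ± 0.28 (SE, n = 2 arrays a group; unadjusted p 0.0613, limma adjusted p 0.31). ILMN_1658015 read 6.47 and 6.69 for wild type and 6.84 and 7.30 for knockout, which differ by 0.49 ± 0.21 (unadjusted p 0.0746, adjusted p 0.335). In both, the second knockout array stood farther from the wild type mean, by 1.07 and 0.72, than the first, by 0.36 and 0.26. Without the first knockout array the differences were 1.08 and 0.70, and without the second 0.36 and 0.25. ILMN_2364272 reached an unadjusted limma p under 0.05 under median scaling (0.0483), in the authors' deposited values (0.0292) and with an intensity trend in the variance (0.0482, or 0.0492 with robust fitting), none with an adjusted p under 0.05. ILMN_1684316 read 6.29 and 6.01 for wild type and 6.50 and 6.17 for knockout, where the groups overlapped. Its difference of 0.18 ± 0.18 was 0.51 with the replaced detection p-values, 0.01 without the first knockout array and 0.04 without the second wild type array. ILMN_1658015 and ILMN_1684316 share the record NM_144778.

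Genes in the same pathways were taken from lists, each gene by its brightest kept probe. Over all 11311 measured genes, 10% lay higher and 11.4% lower at an unadjusted p under 0.05, none passed the adjusted threshold, 50.8% had a difference below 0, and the median difference was -0.0048. Scaling the arrays to equal medians moves that median to 0.12. Among kept probes at an unadjusted p under 0.05, the scaling moves the share of higher ones from 47.6% to 85.3%. Directions of the lists are therefore given under both. Under median scaling 2282 of all 19752 kept probes were at that p, 1947 of them higher. List counts under median scaling are therefore not comparable with the 10% and 11.4%.

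Of 30 other splicing factors 23 were measured, with 0 higher and 5 lower at an unadjusted p under 0.05. The difference was below 0 for 18 of the 23, with a median of -0.34 (-0.14 under median scaling, with 2 higher and 2 lower). HNRNPF, an hnRNP that binds G-rich RNA, had the smallest p, at 6.95 and 6.98 for wild type and 6.44 and 6.32 for knockout (-0.58 ± 0.11, limma adjusted p 0.151). PTBP3, a paralogue of the exon repressor PTBP1, read 11.13 and 11.10 for wild type and 10.28 and 10.54 for knockout (-0.71 ± 0.14), and PTBP1 itself 12.60 and 12.61 against 12.19 and 12.29 (-0.36 ± 0.10). RBM24, a muscle-enriched splicing activator, read 8.53 and 8.19 against 7.51 and 7.05 (-1.08 ± 0.22). In all 4 the knockout arrays lay below the wild type arrays. These 4 were picked for their small p, and the groups did not overlap for 49.9% of all kept probes. The list's median was -0.14 on the first knockout array and -0.46 on the second, each against the wild type mean. RBFOX1, RBFOX3, CELF2, ESRP1, ESRP2, NOVA1 and NOVA2 had no kept probe.

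Of 22 DEAD-box and related helicases other than DDX5 and DDX17, 20 were measured, with 0 higher and 11 lower at an unadjusted p under 0.05. The difference was below 0 for 18 of the 20, with a median of -0.49. Under median scaling the median was -0.29 and 3 lay lower at that p. On the first knockout array the list's median stood at -0.33 and on the second at -0.66, against the wild type mean. DDX46, a helicase of branch-site recognition in the spliceosome, read 8.98 and 8.70 for wild type and 7.99 and 7.72 for knockout (-0.98 ± 0.17, limma adjusted p 0.145). DDX52, DDX47 and DDX49, whose yeast counterparts act in ribosome production, differed by -0.87 ± 0.16, -0.44 ± 0.10 and -0.93 ± 0.23. DDX5, at -0.32 (-0.12 under median scaling), lay on the same side as this list and DDX17, at 0.24, on the other.

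Of 20 partners of macroH2A and chromatin regulators 18 were measured, with 2 higher and 5 lower at an unadjusted p under 0.05 and a median of -0.17 (0.04 under median scaling, with 0 lower). PARP3, a DNA-damage ADP-ribosyltransferase, had the smallest p, at 8.84 and 9.0 for wild type and 10.08 and 10.29 for knockout (1.26 ± 0.14, limma adjusted p 0.127). PARP1, the main nuclear poly(ADP-ribose) polymerase and a known partner of macroH2A1, read 11.95 and 12.23 for wild type and 11.23 and 11.26 for knockout (-0.84 ± 0.14, adjusted p 0.14). SSRP1, a subunit of the histone chaperone FACT, differed by -0.77 ± 0.10, and the other FACT subunit, SUPT16H, by 0.08 ± 0.25. EZH2, a methyltransferase of histone H3 that is named in the series title beside mH2A1.2, differed by -0.70 ± 0.15 (adjusted p 0.177). In the authors' values 1 gene of this list lay higher and 4 lower at an unadjusted p under 0.05. Against the wild type mean the list's median was -0.13 on the first knockout array and -0.16 on the second.

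Of 9 other genes with macrodomains 7 were measured, with 2 higher and 1 lower at an unadjusted p under 0.05 and a median of -0.13 (0.07 under median scaling). MACROD1, which removes mono-ADP-ribose from proteins, read 6.97 and 7.15 for wild type and 8.13 and 8.96 for knockout (1.48 ± 0.32, limma adjusted p 0.175). PARP9 differed by 0.62 ± 0.14 and PARP14, at an unadjusted p of 0.0782, by 0.62 ± 0.26. GDAP2 differed by -0.39 ± 0.13, and it was no longer at an unadjusted p under 0.05 without background correction, under median scaling or in the authors' values. Taken by knockout array against the wild type mean, the list's median was -0.01 on the first and -0.15 on the second.

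Of 5 other H2A variant genes 4 were measured, and 0 were at an unadjusted p under 0.05 in either direction. H2AZ1, a gene for the variant H2A.Z, read 13.70 and 13.53 for wild type and 13.54 and 13.10 for knockout (-0.29 ± 0.19). H2AX, the variant phosphorylated at DNA breaks, differed by -0.50 ± 0.52, H2AZ2 by -0.24 ± 0.25 and H2AJ by 0.14 ± 0.29. The list's median was -0.27 (-0.07 under median scaling). Against the wild type mean it was -0.02 on the first knockout array and -0.52 on the second.

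**Figure D4:**
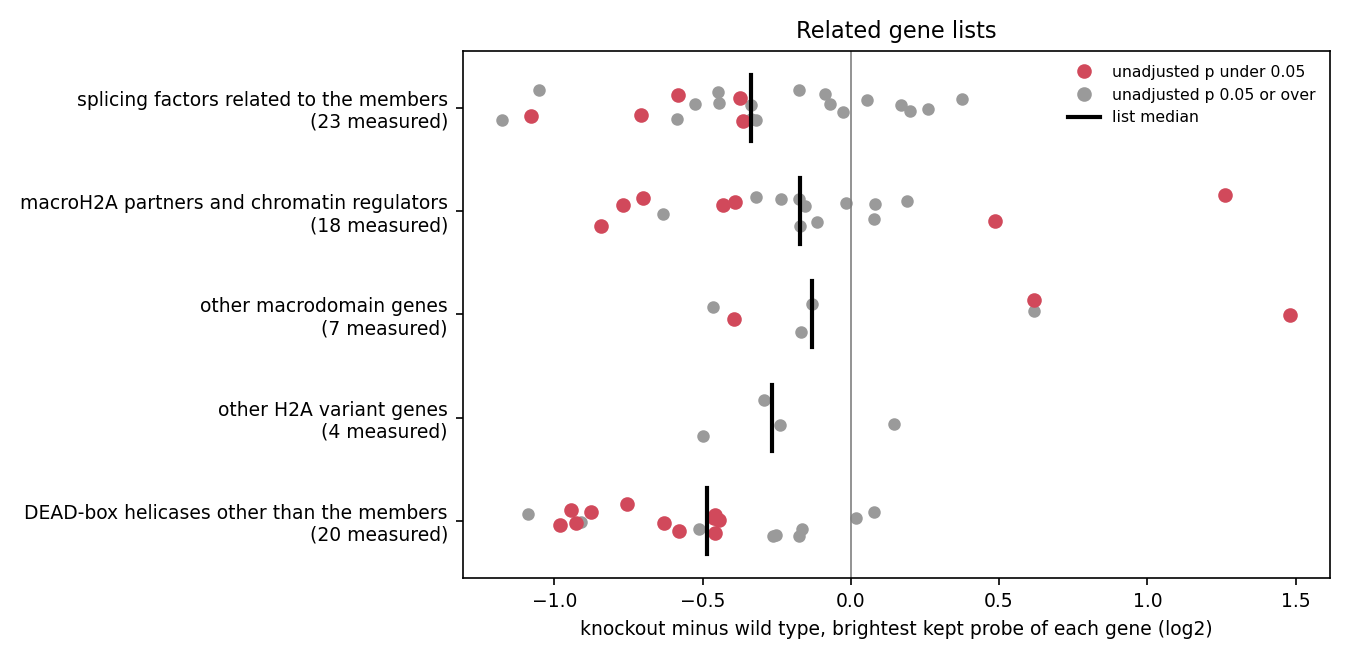
Knockout minus wild type difference (log2, x axis) of each measured gene of the 5 related lists by its brightest kept probe, 1 point a gene and 1 row a list, red where the unadjusted p was under 0.05, with a black bar at the list's median; "the members" are the 8 genes. The helicase list sits farthest to the left, at a median of -0.49.

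The genes whose brightest probe had the most similar profile over the 4 arrays, by Euclidean distance of centred log2 values, were found for each of the 8 genes. For MACROH2A1 (ILMN_2373495) they were SHMT1 at a distance of 0.0236 and TSC22D2 at 0.0278, among 11310 genes with a median distance of 0.83. For MBNL2 they were DHX40 at 0.031 and CRACR2B at 0.0347, for DDX5 THOP1 and MCM3, for RBFOX2 SNTB2 and OLFML2B, and for DDX17 TATDN3 and PET100. For QKI they were FBXL12 and TTR, for MACROH2A2 CNOT2 and CRNDE, and for MBNL1 ZFTA and GJA3. With 4 arrays such likeness is common: between 62 genes, for MBNL1, and 1509, for MACROH2A2, lay within 0.2.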

How the data were processed

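Total RNA of 4 MDA-MB-468 samples was labelled with biotin and hybridised to Illumina bead arrays, per the labels' protocols. The submitters' processing notes name GenomeStudio. The deposited intensity values are mean signals per probe, neither normalized nor background subtracted as their lowest values (99.5 to 104) show, with a detection p-value per the file headers. The deposited log2 values of 47164 probes are the authors' own, and no source used here states their normalization.

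Signals were corrected with limma's normexp method, negative controls inferred from detection p, offset 16, then quantile normalized (R 4.3.3, limma 3.58.1). The filter kept probes with detection p under 0.05 on 2 or more arrays. Each kept probe was a feature in limma's moderated two-sided test, and diffSplice compared the probes of a gene. Gene symbols came from GEO's platform annotation (30074 probes with 1 symbol, 8 with several, 17148 unnamed here), updated through gene number for 30035 with a GRCh38.p14 table. A probe that 2 genes share was left out. No build is named for the array, so no coordinates are given. The limma fit and diffSplice, but not the steps before them, were tested on simulated data.

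For 147 probes, none of them of the 8 genes, the detection p does not follow the signal. It is not a multiple of the step seen in all other probes and is at most 0.05, so all 147 were kept. The cause is not known here. After seeing the data, an alternative was added in which their detection p is that of other probes at the same signal on the array. It keeps 45 of them, and it also changes the background estimate and so the values of dim probes. Marker detection in the text uses these replaced values. A first attempt, multiplying these p-values by a constant, was dropped because it gave bright probes no detection.

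The members and lists were chosen with earlier results of these data known. Genes named are all probes of the 8 genes, up to 4 genes with the smallest p of each list, and the 2 nearest profiles of each gene. Markers and SUPT16H, the other FACT subunit, are named besides. Other alternatives were no background correction, median scaling, the authors' values, no filter on detection or one at 0.01 on all 4 arrays, the brightest probe per gene, an offset of 50, a variance trend with intensity (plain or robust), a block for the replicate number, and each array left out. List counts under alternatives were added after seeing the data. With 2 arrays a group, their number limits the precision.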

Additional observations from a re-analysis of the deposited data

Results flagged for a closer look

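Both probes that were kept out of the fit for detection on 1 array are noted as signal outside the comparisons. DDX5 probe ILMN_1819304 had a signal of 154.6 on the second knockout array (detection p 0.0195) and was not detected on the others. RBFOX2 probe ILMN_1697418 had a signal of 157.8 on the first knockout array (detection p 0.0325) and was not detected on the others. Of all 27478 probes not kept, 15.5% were detected on exactly 1 array. No group has enough arrays for a test of single outlying samples.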

How the results depend on the processing

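The 3 kept MACROH2A1 probes kept their direction under every alternative run, and so did their ratios within arrays. In fits without 1 array, p-values and counts rest on the spread of the other group alone. They are listed here to show how those fits moved and are not read as calls. Leaving out each array in turn gave -0.88 to -0.68 for ILMN_2373495 and -1.14 to -0.93 for ILMN_1746171, with both of these past the adjusted threshold without the first knockout array. For ILMN_1674034 it gave 0.58 to 1.0, with an unadjusted p of 0.115 in limma's test without the second wild type array. Leaving out arrays gave 0 to 4 of the 8 genes' probes and 0 to 3625 of all kept probes at an adjusted p under 0.05, and 2 to 6 and 1038 to 6518 at an unadjusted p under 0.05. A fit of the brightest kept probe per gene gave 1 of the genes' 8 probes at an unadjusted p under 0.05, against 2279 of all 11311. Samples with the same replicate number deviated together (r = 0.49), but with 2 pairs this does not show that the numbers pair samples. With the replicate number as a block 5 of the genes' 15 kept probes were at an unadjusted p under 0.05, against 4567 of all 19752 kept probes. In the main fit these were 3 of 15 and 3415 of 19752. In diffSplice 285 genes were at that p under the block, against 183 in the main fit. No adjusted call was added. The added probes under the block were those of MBNL2, ILMN_2364272 (unadjusted p 0.0243) and ILMN_1658015 (0.0218). The diffSplice adjusted p of MACROH2A1 was 0.00955 with no detection filter, where 70 genes passed the adjusted and 633 the unadjusted threshold. Genes at an unadjusted p numbered 108 under median scaling, 75 with detection p under 0.01 on all 4 arrays and 109 with the replaced detection p-values, where MACROH2A1 had an adjusted p of 0.226. Leaving out each array gave 0 to 11 genes at an adjusted and 32 to 431 at an unadjusted p. Probes without a call changed sign: MACROH2A2 to -0.13 in the authors' values, QKI ILMN_1773485 to 0.0533 and ILMN_1690476 to 0.0163 under median scaling, and MBNL1 ILMN_2313158 to 0.22. Left-out arrays took MACROH2A2 from -0.0345 to 0.12, the 3 QKI probes from -0.16 to 0.0573, -0.14 to 0.0092 and -0.14 to 0.0752, and the 2 MBNL1 probes from -0.51 to 0.058 and -0.14 to 0.0053. With the replaced detection p-values the QKI probes read -0.16, -0.23 and -0.10 and MACROH2A2 0.14. The cause of these changes was not tested.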
